A study of Mus musculus with 12 samples.

Results

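Complement and coagulation proteins are secreted into the blood by the liver, and the genes described here are those of clotting factors, their inhibitors and complement components. The set was defined by name, as 35 gene symbols to be looked up in the gene table of the series. Of these, 33 were found among the 21490 symbols of the table, and C1ra and C5 matched no row by name. All 33 passed the signal threshold of 6 reads per base pair (rpbp) in at least 1 library, as did 6284 symbols in all. A row named C1r starts at the same base of chromosome 6 as C1ra. It held 1.5 to 2.5 rpbp, under the threshold, and was not taken into the set. Hc, the mouse gene of C5, is given below with other genes of these pathways.

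Blood clotting runs through a cascade of serine proteases. The intrinsic route (contact factors, F11, F9) and the extrinsic route (F7) meet at F10, which with its cofactor F5 turns prothrombin into thrombin, and thrombin cuts fibrinogen to fibrin. Complement is a second protease cascade, entered through antibodies (the classical route), sugars on microbes (the lectin route) or spontaneous C3 turnover (the alternative route), which meet at the cleavage of C3 and end in a pore made of the terminal components. Hepatocytes are the main source of most of these proteins, and several of them, fibrinogen and C3 among them, are known as acute-phase proteins, whose synthesis rises in inflammation.

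Nascent RNA, which is RNA still attached to the polymerase on chromatin, was sequenced from the livers of adult C57BL/6 mice, 3 to 6 months old and male according to the methods of the study. Animals were kept on 12 hours of light and 12 hours of dark for at least 2 weeks and carried no further treatment. Livers were taken every 4 hours from ZT0 to ZT20 of zeitgeber time (ZT0 is lights on, ZT12 lights off), in duplicate, which gave 12 libraries. The series has no control group, and time points were compared with each other. The study describes the replicates as 2 independent series, but the labels give only a replicate number, and p-values here measure the spread between these libraries.

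Each value is the sequencing coverage over the exons of a gene, from both strands, divided by the exon length and scaled to an equal number of reads, in rpbp. The sum over all symbols ranged from 118342 to 160545 rpbp per library, and the number of reads behind each value was not used here. The libraries of ZT8 and ZT20 were run in 2 lanes and the other libraries in 1 lane, so lanes and time points cannot be told apart for these contrasts. In ZT16 replicate 2 the median tested gene lay at -0.205 on the log2 scale from its own mean over libraries, and in ZT8 replicate 2 the genes of highest exon GC content lay at -1.20 on that scale relative to those of lowest GC content. As a check of the tissue, all 8 hepatocyte markers examined (such as Alb and Ttr) were detected, with a summed signal of 820.6 to 2057 rpbp. Kupffer cell markers summed to 22.8 to 75.1 rpbp over 9 genes, endothelial markers to 21.2 to 38.7 rpbp over 8 genes, stellate cell markers to 9.6 to 14.7 rpbp over 6 genes, and the 2 blood markers found to 1.9 to 6.9 rpbp. Bile duct markers summed to 1.0 to 2.5 rpbp over 4 genes, with Krt19, Krt7 and Spp1 under 1 rpbp throughout. In bulk liver, fewer cells of a type and less RNA per cell cannot be told apart.

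The sequences just upstream of 6 genes described below are shown first. They are the 3 fibrinogen genes, C3, F5 and F11. The fibrinogen genes lie in 1 locus, C3 had the widest swing of the highly expressed genes, and F5 and F11 had their lowest means at ZT16. Only C3 and F5 of the 6 were called by either test below. Each sequence is the 250 bases before the RefSeq transcription start in GRCm38.p6, read 5′ to 3′ on the strand of the gene. Capitals mark matches, on either strand, to the letters GTTAAT (an HNF1 half-site), TTGCNNAA (a C/EBP site) or TTCNNNGAA (a STAT site). These factors are known regulators of liver and acute-phase genes. The locations are chr3:83025903-83026152 (plus strand) for Fga, chr3:83049864-83050113 (minus strand) for Fgb, chr3:83007474-83007723 (plus strand) for Fgg, chr17:57228137-57228386 (minus strand) for C3, chr1:164151585-164151834 (plus strand) for F5 and chr8:45262032-45262281 (minus strand) for F11.
Fga: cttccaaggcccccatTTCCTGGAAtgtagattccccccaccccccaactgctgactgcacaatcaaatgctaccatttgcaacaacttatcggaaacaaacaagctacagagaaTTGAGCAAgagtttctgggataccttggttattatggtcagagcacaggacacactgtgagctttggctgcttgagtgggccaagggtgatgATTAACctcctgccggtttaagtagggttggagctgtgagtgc
Fgb: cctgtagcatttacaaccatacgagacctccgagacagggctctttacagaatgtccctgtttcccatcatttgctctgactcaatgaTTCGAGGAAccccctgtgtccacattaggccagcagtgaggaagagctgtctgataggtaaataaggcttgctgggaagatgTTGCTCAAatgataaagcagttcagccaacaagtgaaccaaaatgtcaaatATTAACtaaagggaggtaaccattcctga
Fgg: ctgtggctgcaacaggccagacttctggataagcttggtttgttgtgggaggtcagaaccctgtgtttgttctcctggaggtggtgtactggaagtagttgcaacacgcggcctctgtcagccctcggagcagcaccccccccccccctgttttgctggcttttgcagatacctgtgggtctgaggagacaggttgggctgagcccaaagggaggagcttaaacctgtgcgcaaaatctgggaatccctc
C3: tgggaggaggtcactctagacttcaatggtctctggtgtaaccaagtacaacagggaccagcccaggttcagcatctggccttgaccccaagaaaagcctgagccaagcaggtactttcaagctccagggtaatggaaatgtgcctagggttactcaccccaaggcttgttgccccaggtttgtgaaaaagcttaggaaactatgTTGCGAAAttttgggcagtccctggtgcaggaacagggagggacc
F5: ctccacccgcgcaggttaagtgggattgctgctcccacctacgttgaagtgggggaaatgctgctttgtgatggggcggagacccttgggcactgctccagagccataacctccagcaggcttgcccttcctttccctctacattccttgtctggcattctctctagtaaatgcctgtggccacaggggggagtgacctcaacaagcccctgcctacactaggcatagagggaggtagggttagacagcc
F11: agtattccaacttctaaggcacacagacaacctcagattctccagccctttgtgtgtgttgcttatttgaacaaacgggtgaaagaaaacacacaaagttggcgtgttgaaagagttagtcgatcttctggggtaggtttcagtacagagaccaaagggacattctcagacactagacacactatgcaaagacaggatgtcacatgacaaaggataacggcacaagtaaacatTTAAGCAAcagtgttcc

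Fga and Fgb each held 1 match to all of these 3 motifs, with the HNF1 half-site 43 and 29 bases before the start and the C/EBP site 135 and 80 bases before it. The Fgg window held none of them, nor did that of F5. The window of Mbl1, a gene called below, is not printed and held none either. C3 and F11 each held a single C/EBP match, 45 and 17 bases before the start. A promoter entry existed for 24 of the 33 genes (25 windows, since C8g has a pair), and not for C1s, C2, C4b, Cfb, Cfi, Kng1, Masp1, Plg and Proc. HNF1 half-sites were found in 7 of the 25 windows (28.0%) against 6.43% of all 32851 mouse promoter windows, C/EBP sites in 7 (28.0%) against 9.56%, and STAT sites in 6 (24.0%) against 7.02%. Letters bound by clock factors were also searched. The E-box CACGTG and the D-box TTATGTAA occurred in 0 of the 25 windows, against 6.02% and 0.819% of all windows, and the REV-ERB and ROR half-site TAGGTCA in that of C6 alone, against 2.23%. The HNF4 site CAAAGTCCA was in 0 windows, against 0.384%. The searched letters do not overlap in the windows printed, and a match or its absence says nothing of whether the factor binds.

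The complement and coagulation genes were transcribed at high levels. Their median mean signal was 31.5 rpbp, against 7.63 rpbp over all tested genes. Fgb, the fibrinogen beta chain, had the highest mean (163 ± 64.0 rpbp, SD over 12 libraries), followed by C3 (122 ± 91.7 rpbp) and Fgg, the fibrinogen gamma chain (110 ± 54.0 rpbp). At the other end stood Pros1, which encodes the anticoagulant protein S, with 4.95 ± 1.44 rpbp. These genes also varied more between libraries, with a median coefficient of variation of 0.326 against 0.252 for all tested genes, and their time-point means spanned a median range of 2.00-fold against 1.61-fold (highest over lowest, each with 1 rpbp added). Part of that variation lay between replicates. Replicates of a time point differed by more than 1.5-fold in 52 of 198 pairs (26.3%) against 15.7% of the pairs of all tested genes, with 11 such pairs at ZT0 (33.3% against 12.8%), 13 at ZT8 (39.4% against 25.1%), 12 at ZT16 (36.4% against 24.4%) and 2 at ZT20 (6.06% against 8.85%).

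**Figure D1:**
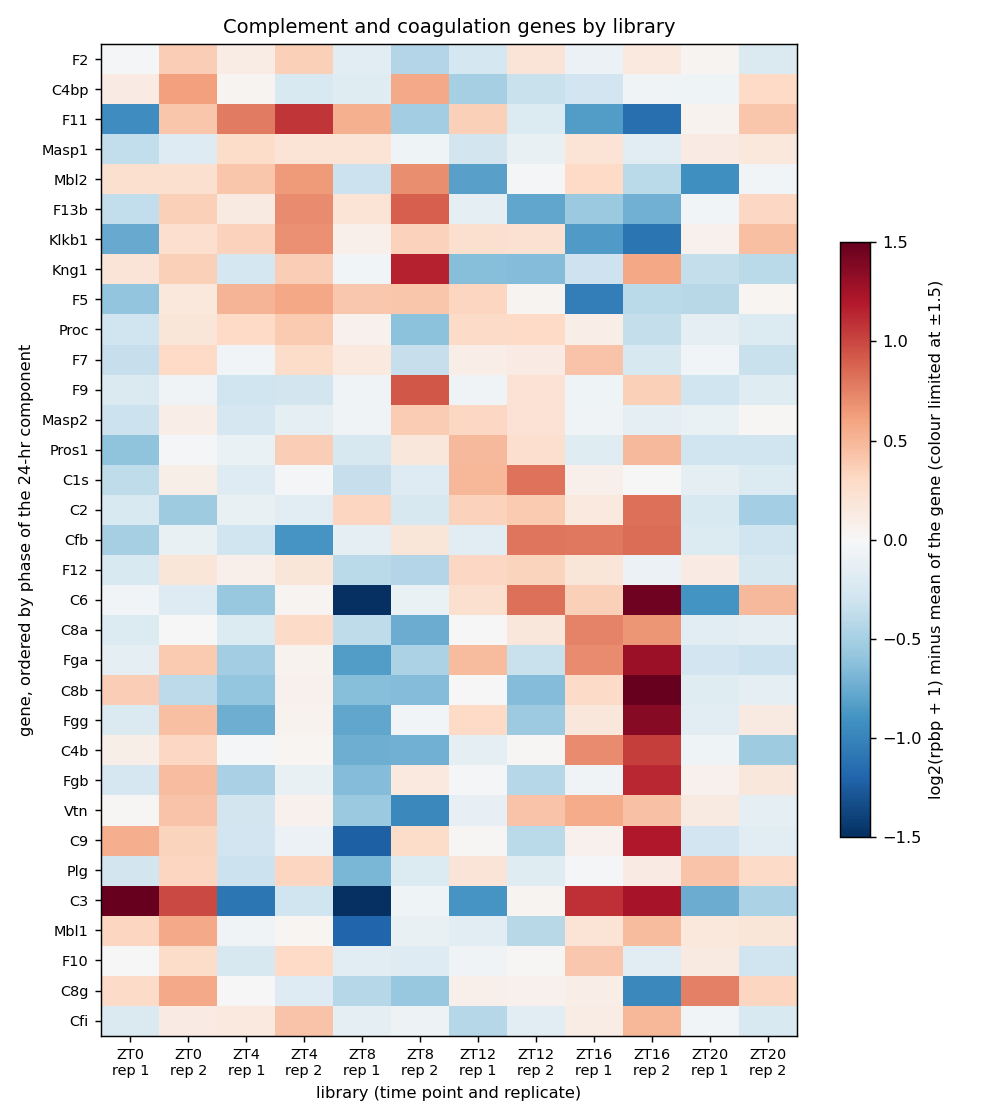
Nascent RNA of the 33 genes in the 12 libraries, as log2(rpbp + 1) minus the mean of each gene (colour, limited at ±1.5), with genes ordered from top to bottom by the phase of their 24-hr component. Most of the deepest red lies in ZT16 replicate 2, and F11, Klkb1 and F5 are blue in both ZT16 libraries.

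Rhythmic transcription was assessed with F24, the share of the variance of the 12 values that lies in a 24-hr cosine. The limits of the study's methods were used, under which a rhythmic gene has a one-sided permutation p under 0.05 (not adjusted), an F24 above 0.45 and at least 1 library more than 1.5 times as high as the lowest. By this rule 4 of the 33 genes were rhythmic (12.1%), against 15.2% of all tested genes, so the share was near the background. They were F5, Cfb, Mbl1 and C2, with phases spread from the middle of the light period to late night. No gene of the 33 passed an adjusted permutation p under 0.05, which 0.796% of the tested genes did. The moderated F-test of limma, run on log2(rpbp + 1), asked whether the 6 time points differed in any way, a 24-hr rhythm included. At an adjusted p under 0.05 this called 2 of the 33 genes (6.06%), C4b and C3, against 7.65% of all tested genes, again near the background. At an unadjusted p under 0.05 the same test took in 14 of the 33 (42.4%) against 27.6% of all tested genes.

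F5, the cofactor that speeds the making of thrombin, had the highest F24 of the set (0.698, phase 6.17 hr, permutation p = 0.0079, adjusted p = 0.15). Its signal was 13.8 and 23.9 rpbp at ZT0, 30.9 and 32.5 at ZT4, 28.5 and 28.7 at ZT8, 26.9 and 21.9 at ZT12, 9.9 and 15.9 at ZT16, and 15.7 and 21.7 at ZT20. Both libraries of ZT4 and both of ZT8 lay above all the others, and the time-point mean was 31.7 ± 1.13 rpbp at ZT4 and 12.9 ± 4.24 at ZT16 (SD, n = 2). The call held in all 12 fits that left out 1 library. By the F-test of limma the adjusted p was 0.092. The gene lies on chromosome 1 (166081990 to 166150405, plus strand, mm9), within the span that the table gives to Capn8 and overlapping a transcript named AK149537, and reads that such rows share cannot be told apart. The Capn8 row spans much of the chromosome and takes in F13b and C4bp as well.

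Cfb encodes factor B, the protease subunit of the alternative C3 convertase (chromosome 17, 34993326 to 34999162, minus strand, mm9). Its signal was 33.1 and 43.6 rpbp at ZT0, 38.1 and 25.2 at ZT4, 42.4 and 53.8 at ZT8, 41.8 and 83.3 at ZT12, 82.3 and 85.2 at ZT16, and 40.7 and 38.1 at ZT20. Both ZT16 libraries were high, and so was 1 of the 2 at ZT12, where the replicates differed by 0.98 on the log2 scale. F24 was 0.606 with a phase of 14.3 hr (permutation p = 0.016, adjusted p = 0.193). Without ZT4 replicate 2 the call was lost (permutation p = 0.0525), as it was with lanes as a block (permutation p = 0.0526) and in each series of 6 libraries alone.

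C2, whose product is the matching subunit of the classical and lectin C3 convertase, lies 389 bases from Cfb on chromosome 17 (34999552 to 35018992, mm9) and on the same strand. It was transcribed at a lower level, with 14.0 and 11.1 rpbp at ZT0, 15.3 and 14.6 at ZT4, 20.9 and 13.9 at ZT8, 21.3 and 22.0 at ZT12, 18.5 and 30.2 at ZT16, and 14.0 and 11.3 at ZT20. The ZT12 and ZT16 libraries lay above those of ZT0, ZT4 and ZT20, and ZT8 overlapped both. F24 was 0.548 with a phase of 12.9 hr (permutation p = 0.0207, adjusted p = 0.211), and the call was lost without ZT0 replicate 2 (permutation p = 0.0574). With the trend of exon GC content removed, F24 fell under the limit (0.423). The phases of C2 and Cfb were 1.37 hr apart.

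Mbl1 encodes mannose-binding lectin A, a sugar sensor of the lectin route (chromosome 14, 41964745 to 41972248, plus strand, mm9). Its signal was 53.8 and 63.7 rpbp at ZT0, 41.1 and 43.7 at ZT4, 18.2 and 39.5 at ZT8, 38.3 and 31.8 at ZT12, 49.4 and 59.7 at ZT16, and 47.7 and 48.5 at ZT20. The libraries of ZT16, ZT20 and ZT0 lay above all those of ZT4, ZT8 and ZT12. F24 was 0.593 with a phase of 21.0 hr (permutation p = 0.0128, adjusted p = 0.178), and the call held in all 12 fits with 1 library left out, although ZT8 replicate 1 was far below its partner. In neither series of 6 libraries alone was Mbl1 called. The other collectin, Mbl2, was lower (11.1 ± 4.04 rpbp over 12 libraries) and not called (F24 0.376).

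**Figure D2:**
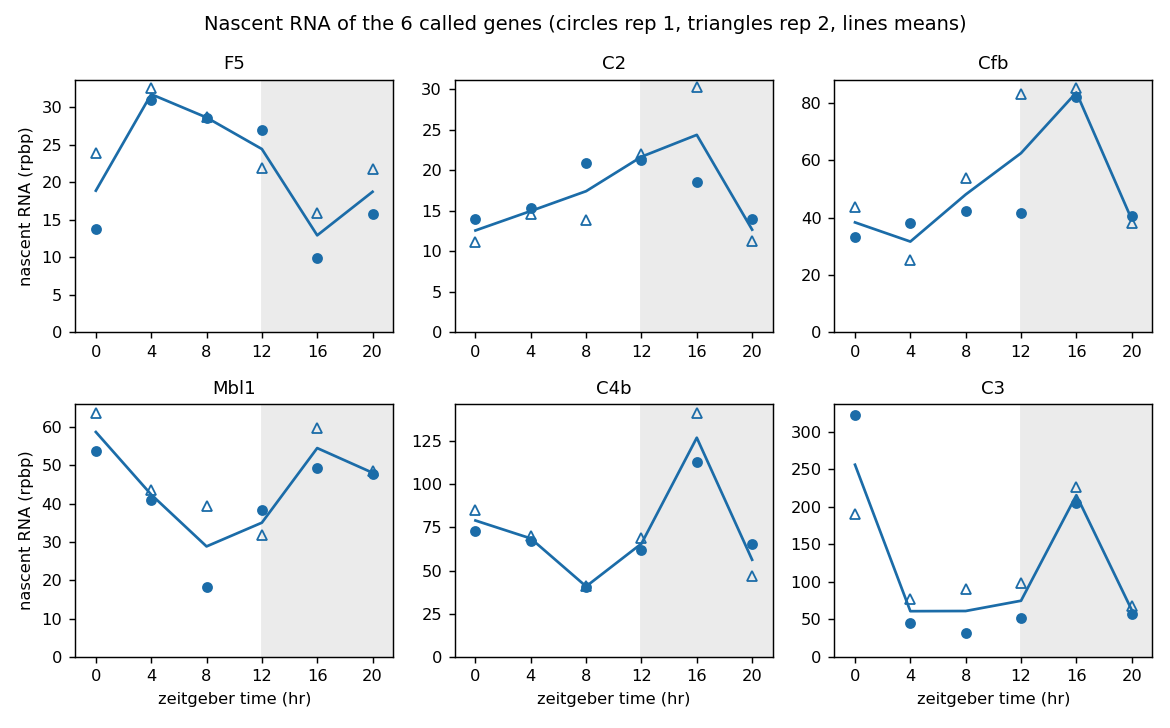
Nascent RNA (rpbp) by zeitgeber time for the 6 genes called by either test, with filled circles for replicate 1, open triangles for replicate 2, lines through the means of 2 and grey for the dark period. F5 is highest at ZT4 and ZT8, Cfb and C4b at ZT16, and C3 at ZT0 and ZT16.

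C4b, a classical component that is cut by C1s, was called by the F-test of limma (adjusted p = 0.019). Its signal was 72.9 and 85.1 rpbp at ZT0, 67.4 and 69.8 at ZT4, 40.7 and 40.9 at ZT8, 62.1 and 69.1 at ZT12, 112.7 and 141.3 at ZT16, and 65.5 and 47.0 at ZT20. Both ZT16 libraries lay above all others and both ZT8 libraries below all others, a 3.06-fold range of time-point means with 1 rpbp added. The call held in all 12 fits without 1 library (adjusted p 0.0214 to 0.0478 in limma) but not among the 4 time points of 1 lane alone (adjusted p = 0.112). C4a, a near-identical copy, lies close by on chromosome 17, and the table gives both symbols spans that cover each other's locus (34865332 to 34950812 for C4b, mm9), so how their shared reads were split is uncertain. C4a itself had 50.3 and 110.9 rpbp at ZT16 and 10.1 to 53.5 rpbp elsewhere.

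C3, on which all complement routes meet (chromosome 17, 57343396 to 57367559, minus strand, mm9), was called by the F-test of limma with an adjusted p of 0.041. Its signal was 322.3 and 190.3 rpbp at ZT0, 44.5 and 77.2 at ZT4, 31.4 and 90.8 at ZT8, 51.3 and 98.3 at ZT12, 204.9 and 226.4 at ZT16, and 56.7 and 68.4 at ZT20. All 4 libraries of ZT0 and ZT16 lay above the other 8, and the time-point means ranged 4.16-fold with 1 rpbp added. High values at 2 time points 8 hr from each other leave little in a 24-hr cosine, and F24 was 0.211 (permutation p = 0.342). The call by limma held in 2 of the 12 fits with 1 library left out (adjusted p 0.0253 to 0.112), the one without ZT8 replicate 1 and the one without ZT8 replicate 2. It was also lost with the GC trend removed (adjusted p = 0.076) and with a pseudocount of 0.1 (adjusted p = 0.0535). Replicates at ZT8 differed by 1.5 on the log2 scale. The hepatocyte marker sum was 820.6 rpbp in ZT0 replicate 1, where C3 was highest, and 925.3 and 904.3 rpbp in the ZT16 libraries, against 1259 to 2057 rpbp in the other 9 libraries. Its part in the C3 pattern was not tested.

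Across the set, ZT16 was the most frequent time point of highest transcription. The mean was highest there for 13 of the 33 genes (39.4%), against 7.56% of all tested genes. It was lowest at ZT8 for 16 of the 33 (48.5%), against 24.0%. In the first series alone ZT8 was lowest for 14 (42.4% against 17.8%), and in the second alone for 10 (30.3% against 26.8%). The 13 genes highest at ZT16 were F7, Fga, Fgb, Fgg, C2, C4b, Cfb, Cfi, C6, C8a, C8b, C9 and Vtn. Of these, 9 belong to complement or its control and 3 make up fibrinogen. The set of 33 itself held 4 classical, 4 lectin, 6 terminal and 3 C3 and alternative complement genes, counting their controls. For F7 and Cfi the lead was slight, with 15.60 and 13.90 rpbp at ZT16 against 15.55 and 13.65 at ZT4. Both ZT16 libraries lay above both ZT8 libraries for 15 of the 33 genes (45.5%), against 17.4% of all tested genes, and the median log2 difference of ZT16 over ZT8 was 0.34 for the set and -0.11 over all tested genes. These shares are descriptions of a pattern seen in the values and were given no test.

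ZT16 replicate 2 contributed much of this. It was the highest of the 12 libraries for 10 of the 33 genes (30.3%), against 4.47% of all tested genes. Without it, 9 of the 33 had their highest mean at ZT16 (27.3%), against 13.9% of all tested genes. In the first series alone the count was 8 (24.2% against 14.2%), and in the second series alone it was 14 (42.4% against 7.11%). Rescaling all libraries to equal medians gave 18 genes (54.5% against 18.5%) and removing the GC trend gave 17 (51.5% against 16.7%). The summed hepatocyte markers were low in both ZT16 libraries, as given above for C3, and their part in the ZT16 pattern was not tested.

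**Figure D3:**
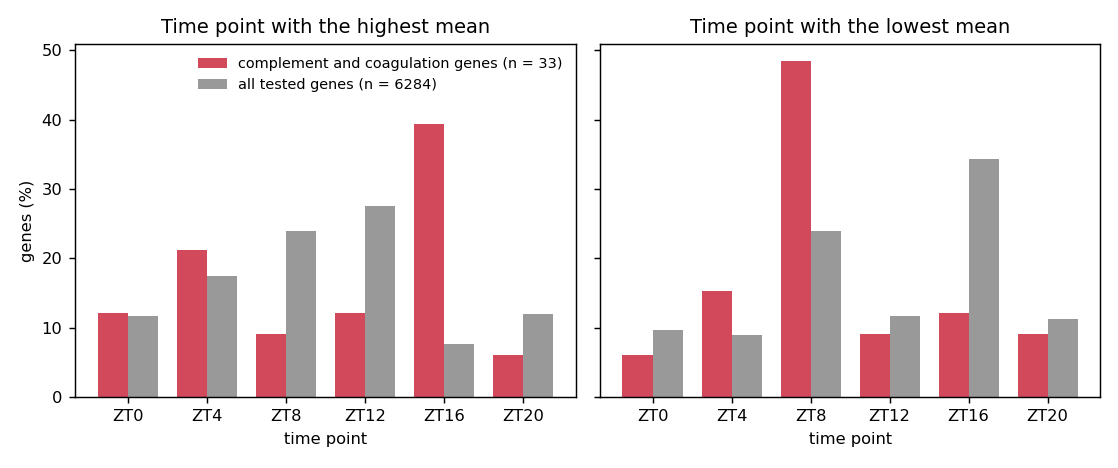
Share of genes (%) whose time-point mean was highest (left) or lowest (right) at each time point, for the 33 complement and coagulation genes (red) and the 6284 tested genes (grey). At ZT16 the red bar on the left stands at 39.4% and the grey bar at 7.56%.

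Among the common and extrinsic factors, F2 (prothrombin) was steady at 62.8 ± 10.9 rpbp, and its values ran from 45.2 to 80.0. F7, which starts clotting with tissue factor, and F10, the protease that activates prothrombin, had means of 14.4 ± 2.88 and 13.4 ± 2.37 rpbp and the lowest ranges over time points of the set (1.24-fold and 1.25-fold). These neighbours lie 1498 bases apart on chromosome 8, with F24 of 0.025 and 0.062.

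F11 encodes a protease of the intrinsic route that activates F9. Its signal was 10.7 and 28.9 rpbp at ZT0, 37.2 and 45.9 at ZT4, 31.3 and 14.6 at ZT8, 27.7 and 18.4 at ZT12, 11.5 and 9.2 at ZT16, and 22.2 and 28.8 at ZT20. Both ZT4 libraries were above all others, while ZT16 overlapped only with ZT0 replicate 1. The range of time-point means was 3.75-fold with 1 rpbp added, but F24 was 0.37 (permutation p = 0.128) and the adjusted p in limma 0.142, with replicates at ZT0 that differed by 1.35 on the log2 scale. Klkb1, plasma prekallikrein of the contact system, lies 7639 bases from F11 on the same strand. Its time-point mean was 31.0 ± 5.37 rpbp at ZT4 and 10.4 ± 1.34 at ZT16 (SD, n = 2), with a phase 0.954 hr from that of F11 and an adjusted p in limma of 0.0674. The Klkb1 row overlaps Cyp4v3, whose reads were not separated by strand. In all, F5, F11, Klkb1 and F13b had their lowest mean at ZT16 (12.1% of the set against 34.3% of tested genes).

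F12, the contact factor that starts the intrinsic route, had 32.8 ± 6.04 rpbp and was lowest in the ZT8 libraries. F9, which lies on chromosome X and whose loss causes haemophilia B, had 7.65 ± 2.60 rpbp, and its highest value of 15.0 rpbp in ZT8 replicate 2 stood against 5.8 to 9.7 in the others. Kng1 (kininogen) was likewise highest in ZT8 replicate 2, with 54.1 rpbp against a median of 21.3. F13b, the carrier subunit of the fibrin-linking enzyme, was highest there too (19.9 rpbp, median 10.6). Mbl2 (17.4 rpbp) and Masp2 (75.9 rpbp) were the other genes of the set that were highest in this library, in which GC-rich genes were lowest. That made 5 of the 33 genes (15.2%), against 19.9% of all tested genes, so such highs were no more common in the set. Exon GC content was 39.0% for F9, 41.2% for F13b, 47.6% for Kng1, 48.6% for Masp2 and 49.1% for Mbl2, and its part in these values was not tested. ZT8 had the highest mean for 3 of the 33 genes (9.09% against 24.0% of all tested genes). With the GC trend removed it had the highest mean for 1 (3.03% against 22.0%).

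The 3 fibrinogen genes lie side by side on chromosome 3, with gaps of 11104 and 10034 bases, and all had their highest mean at ZT16. Fgb had 129.0 and 212.4 rpbp at ZT0, 109.9 and 142.6 at ZT4, 97.7 and 171.1 at ZT8, 152.2 and 114.5 at ZT12, 148.0 and 339.2 at ZT16, and 161.3 and 173.3 at ZT20. Only ZT16 replicate 2 stood clear of the rest, and ZT16 replicate 1 lay within the range of other time points. Fgg showed the same split, with 113.9 and 262.2 rpbp at ZT16 against 86.3 and 137.7 at ZT0, 60.4 and 104.5 at ZT4, 58.4 and 98.3 at ZT8, 124.8 and 68.8 at ZT12, and 89.8 and 110.7 at ZT20. Fga, the alpha chain, differed in that both of its ZT16 libraries lay above all others, with a mean of 160.5 ± 45.5 rpbp at ZT16 and 49.9 ± 8.98 at ZT8 (SD, n = 2). Their phases were 16.5 hr (Fga), 17.1 hr (Fgg) and 17.9 hr (Fgb), but F24 was only 0.335, 0.268 and 0.251, and none was called (adjusted p in limma 0.0747, 0.386 and 0.51).

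**Figure D4:**
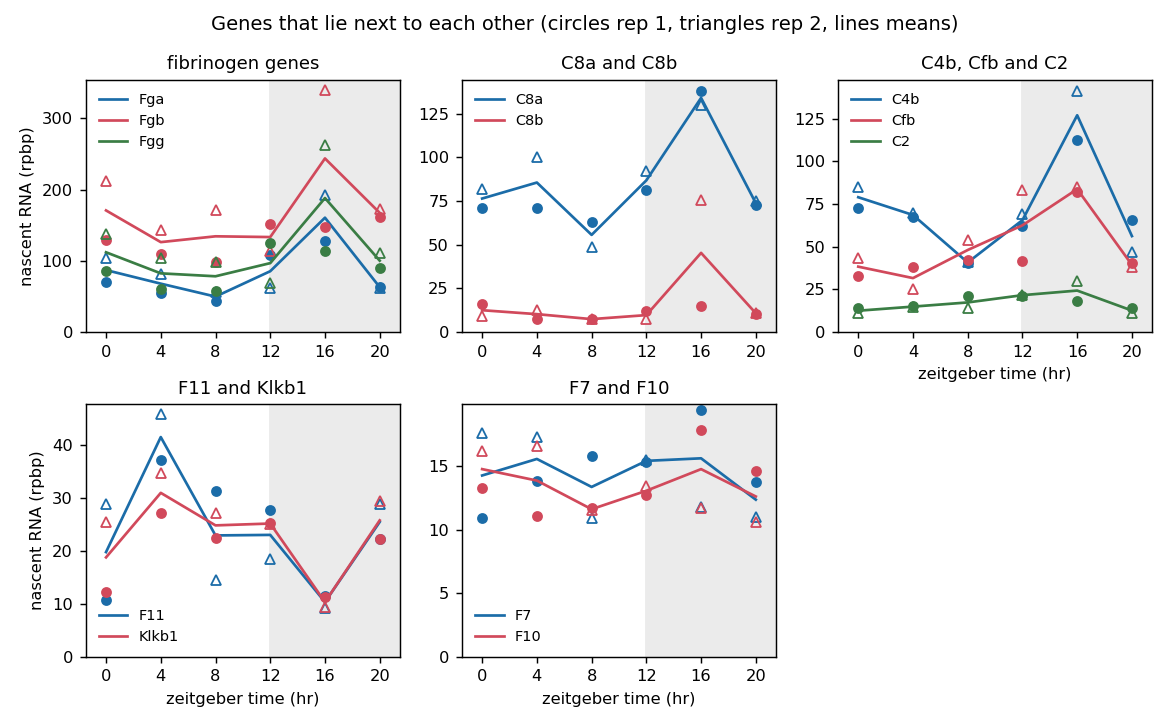
Nascent RNA (rpbp) by zeitgeber time for genes that lie next to each other on a chromosome, with filled circles for replicate 1, open triangles for replicate 2, lines through the means of 2 and grey for the dark period. F11 and Klkb1 are lowest at ZT16, where the fibrinogen genes and C8a are highest, and F7 and F10 stay between 10.6 and 19.4 rpbp.

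Plg, the precursor of the fibrin-cutting enzyme plasmin, had 76.3 ± 17.0 rpbp, with its lowest value in ZT8 replicate 1 (46.0) and its highest in ZT20 replicate 1 (100.3). The Plg row lies within the span that the table gives to Tcp10a. The anticoagulant Proc (protein C) had 33.4 ± 7.21 rpbp and Pros1, its cofactor, ranged from 2.80 to 7.10 rpbp. None of these 3 genes reached an unadjusted p of 0.05 in either test.

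In the classical route, C1s, the protease that cuts C2 and C4, had 18.8 ± 5.46 rpbp and its highest values at ZT12 (26.0 and 32.7 against 13.7 to 19.4 elsewhere). Its F-test in limma had an unadjusted p of 0.0147 and an adjusted p of 0.0946. C4bp, an inhibitor of the classical convertase, had 53.4 ± 14.0 rpbp and its highest mean at ZT0. The lectin proteases Masp1 (20.4 ± 3.20 rpbp) and Masp2 (58.5 ± 9.19 rpbp) had the smallest coefficients of variation of the set, 0.157 each. On the table's coordinates Masp2 overlaps Tardbp, and Masp1 overlaps rows named AK144897 and masp3. Cfi, the protease that degrades C3b and C4b, had 11.2 ± 2.40 rpbp and an F24 of 0.0288.

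The terminal components, which form the pore, had their highest mean at ZT16 in 5 of 6 genes, counting Vtn (vitronectin), a plasma inhibitor of pore assembly. C8a had 137.9 and 130.2 rpbp at ZT16 against 48.5 to 100.1 elsewhere, with an adjusted p of 0.0525 in limma that just missed the threshold. Its neighbour C8b, 11135 bases away on the opposite strand, had 16 and 9.1 rpbp at ZT0, 7.8 and 12.8 at ZT4, 7.5 and 7.4 at ZT8, 12.1 and 7.4 at ZT12, 15.1 and 75.6 at ZT16, and 10.6 and 11 at ZT20. A single library, ZT16 replicate 2, thus made the 5.49-fold range of time-point means of C8b (1 rpbp added), the widest of the set, and ZT16 replicate 1 lay below a library of ZT0. C8g, the third chain of C8, which lies on chromosome 2, was lowest in that same library (6.1 rpbp, against 8.4 to 22.4 in the others).

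C6 and C9, which extend the pore complex, differed strongly between replicates. C6 had 13.6 and 41.1 rpbp at ZT8 and 56.8 and 123.3 at ZT16, and C9 had 15.4 and 45.5 at ZT8 and 39.3 and 87.3 at ZT16. For both genes, ZT8 replicate 1 was the lowest and ZT16 replicate 2 the highest of the 12 libraries. ZT8 replicate 1 also had the highest Kupffer cell marker sum over 9 genes, 75.1 rpbp against 22.8 to 57.5. Marco (20.5 rpbp), Emr1 (17.3) and Cd5l (23.9) made most of that sum. The rest of the list summed to less there than in any other library. The part of these markers in the gaps was not tested. Vtn had 44.8 and 41.3 rpbp at ZT16 and 20.1 and 14.9 at ZT8, without overlap, and an adjusted p of 0.0792 in limma.

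Other genes of these pathways were taken from a list of 64 names, of which 60 were in the table and 33 passed the threshold. By F24, 4 of the 33 were rhythmic (12.1% against 15.2% of all tested genes), namely Cpn1, Itih1, Hrg and C1rl, none of them at an adjusted permutation p under 0.05. By limma, 5 differed between time points at an adjusted p under 0.05 (15.2% against 7.65% of all tested genes), namely Itih1, Itih3, C4a, Cpn2 and Serpina10. The highest mean was at ZT16 for 8 of the 33 (24.2% against 7.56%). Cpn1, the catalytic chain of carboxypeptidase N, which trims complement anaphylatoxins, had an F24 of 0.774 (phase 22.9 hr, adjusted permutation p = 0.0897). Its regulatory chain Cpn2 was highest in the ZT12 and ZT16 libraries (23.4 to 27.1 rpbp against 9.2 to 18.1, adjusted p = 0.027 in limma). Serpina10, an inhibitor of F10, had 82.1 and 136.1 rpbp at ZT16 and 25.2 to 43.3 elsewhere (adjusted p = 0.0245 in limma), and Itih3, a heavy chain of the inter-alpha-trypsin inhibitor family, had 338.2 and 302.5 rpbp at ZT16 and 29.6 to 213.2 elsewhere (adjusted p = 0.015 in limma). Hc, which encodes mouse complement component 5, had 159.5 and 160.9 rpbp at ZT16 and 52.8 to 114.6 elsewhere, with an adjusted p of 0.0856 in limma.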

How the data were processed

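Nascent-Seq libraries of mouse liver were grouped by time point and replicate from the sample labels. Per the labels, reads were processed with CASAVA 1.7 and TopHat on mm9. The authors deposited a normalized signal per gene symbol, the coverage over its merged exons in reads per base pair without regard to strand, to 1 decimal. Because this signal is not a count, no count model was fitted. The authors' own rhythm statistics per gene (variance share, phase and p-value) were not used.

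The table held 21490 symbols and 27919 blank lines, which were dropped. Tests were run on the 6284 symbols that exceeded 6 rpbp in 1 library or more, and p-values were adjusted over all of them by the Benjamini-Hochberg method. F24 was computed on linear values with 100000 permutations (Python 3.11.15, numpy 2.4.6). The moderated F-test of limma 3.58.1 (R 4.3.3) was run on log2(rpbp + 1). Both were also run on simulated data, where every gene was given the same, median spread between replicates. Genes with a wider spread were not covered by that run. Coordinates are mm9, counted from 1, with strand from GENCODE M1 (the same build), and promoter sequences are those of RefSeq on GRCm38.p6. Exon GC content was known for 95.4% of tested symbols, and its trend was removed as the median deviation in 20 bins.

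Values in every library are given for the genes called by either test, then for the 3 with the highest mean and the 3 with the largest ratio of time-point means. A few further values (such as those of C8a, C6, C9 and Vtn) and the comparison of ZT16 with ZT8 were chosen after values were seen. The genes and lists were chosen with earlier results of these data known. Alternatives were other thresholds (3 and 12 rpbp, the mean, none), log2 values, a pseudocount of 0.1, adjusted permutation p, ratios of time-point means, rescaling, GC removal, replicate and lane blocks, single series, subsets of time points and leaving out each library.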

Additional observations from a re-analysis of the deposited data

How the results depend on the processing

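The 4 rhythmic genes (F5, Mbl1, Cfb and C2) were the same genes under the 3 other signal thresholds, no threshold, log2 values and the ratio of time-point means. The number of rhythmic genes was 0 with an adjusted permutation p (4 at the unadjusted p), 8 with rescaled libraries, 9 with the GC trend removed, 8 with lanes as a block, 3 in series 1 alone (C2, Masp2 and C4bp) and 1 in series 2 alone (F5), so that Mbl1 and Cfb were called in neither, and 4 to 7 with 1 library left out. It reached 7 without ZT0 replicate 1 (adding F13b, F11 and Klkb1) and 7 without ZT20 replicate 2 (adding F13b, Vtn and C4b). The 2 genes called by limma became 0 without a threshold (13 at an unadjusted p under 0.05), 1 with a pseudocount of 0.1 (C4b), 5 with rescaled libraries (adding Vtn, C1s and C8a), 3 with the GC trend removed (C4b, C8a and C1s), 4 with the GC trend removed and a replicate block (these and Vtn), both without C3, 0 among the 4 time points of 1 lane (12 unadjusted), 0 for ZT8 against ZT20 (4 unadjusted), and 1 to 3 with 1 library left out. The count of 1 came from leaving out either ZT4, ZT12 or ZT20 library or ZT16 replicate 2, each of which left C4b alone. Over all 6284 tested genes, F24 called 953 in the main analysis, 980 rescaled, 1140 with the GC trend removed and 1208 with the lane block. It called 50 at an adjusted p, 260 in series 1 and 171 in series 2. The F-test of limma called 481 (main), 491 (rescaled), 458 (GC trend removed) and 402 (with a replicate block too). It called 381 with the pseudocount, 133 of 20756 without a threshold, 120 in the 1-lane time points and 96 for ZT8 against ZT20. With fewer time points the test also had fewer libraries, and for the other settings the cause was not tested.

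Chosen after seeing the data, the genes with their highest mean at ZT16 numbered 13 in the main analysis, 8 in series 1 alone and 9 to 14 with 1 library of ZT8 or ZT16 left out. Those lowest at ZT8 numbered 16 (48.5% against 24.0% of all tested genes) and 10 in series 2 alone (30.3% against 26.8%). With 1 such library left out they numbered 13 to 17. The 13 came without ZT8 replicate 1 (39.4% against 34.1%) and the 17 without ZT8 replicate 2 (51.5% against 21.2%). In series 2 alone and without ZT8 replicate 1 the share was thus near the background. The replicate numbers were not treated as pairs, since not every pair of time points reached a correlation of 0.1. Deviations from the time-point means correlated at -0.117 to 0.32 between time points, with 5 of 15 pairs over 0.1. By these deviations 10 of 12 libraries lay closest to one of their own number. The 2 libraries of a time point mirror each other about their mean, so they are not separate counts. The count is at most a weak hint that a number may mark a shared series. With the replicate block 5 genes were rhythmic (adding C6) and 2 were called by limma. Each mean rests on 2 libraries, which limits its precision, and the read depths of the libraries were not used here.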
